A study of Mus musculus with 12 samples.

Results

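Long-range circular RNAs (circRNAs), those whose back-splice junction joins exon ends lying 50000 bp or more apart in the genome, were described in mouse livers. They were taken as the entries of the deposited circRNA table with a span from start to end of at least 50000 bp and with both ends on exon boundaries of 1 protein-coding gene of the GENCODE M21 annotation. This gave 617 of the 16445 circRNAs in the table, from 296 host genes. The rule used position only and no measured value. Of the 662 circRNAs with such a span, 45 lay outside the rule because an end was off a boundary or the host was not protein-coding. Livers of 12 mice were measured, of the strain given as C57BL/8. The 6 PZH mice were injected for 8 weeks with CCl4 (carbon tetrachloride, which damages hepatocytes and leads to fibrosis; 10%, 10 µl per 10 g of body weight). From week 2 to week 8 they were also dosed daily with PZH (the Chinese herbal preparation Pien Tze Huang) at 25 mg/ml. The 6 Control mice received the same CCl4 alone. Both groups therefore carried the injury, livers without CCl4 were not analysed here, and all were taken in week 8.

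A circRNA forms when the splice donor at the end of an exon is joined back to an upstream acceptor, that of the same exon or of one before it. Introns that lie between the joined ends are usually spliced out, so a circle that spans a long stretch of genome can still be a short RNA. Long flanking introns, which can pair through inverted repeats, and slow or skipped splicing of the introns around the first exons are known to favour back-splicing. CircRNAs lack free ends and are therefore degraded slowly by exonucleases. Only the junction was measured here, so which of the exons between the ends a circle holds is not known, and exon lengths below are annotated lengths between the ends. Exon numbers refer to 1 matching transcript of the host.

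The junction sequences of 9 long-range circRNAs on which the results turn are given first, to show what the reads crossed. Coordinates are of GRCm38 (mm10), exon sequence is from the GENCODE M21 transcripts, 5′ to 3′ on the strand of the host. The last 15 bases of the last exon are in lower case and the first 15 bases of the first exon, to which they are joined backwards, are in capitals. Both sides are coding in every sequence shown.
Slc10a7 exons 2 to 5 (chr8:78515586-78578757, plus strand): tttggaagttttttgGACCACTGAAGCCAG
Slc10a7 exons 2 to 10 (chr8:78515586-78706948, plus strand): agtccctcaccttggGACCACTGAAGCCAG
Gphn exons 2 to 4 (chr12:78343352-78412433, plus strand): gatgtcactccagagTGAGTGATAGCTGCT
Gphn exons 2 to 8 (chr12:78343352-78504751, plus strand): tgtccaacaccaaaaTGAGTGATAGCTGCT
Gphn exons 4 to 8 (chr12:78412341-78504751, plus strand): tgtccaacaccaaaaGAAACACTCATAGAC
Arid1b exons 2 to 4 (chr17:5040580-5127024, plus strand): ccatcgagtctaccaGGCAGCCCGATGGAC
Bckdhb exons 2 to 8 (chr9:83952524-84012619, plus strand): gatacagtttgcaagGGCAAACTCAGAAGA
Man1a exons 3 to 6 (chr10:53977023-54030794, minus strand): gctgaatatgaaaagATGATGACCCATGCT
Nfia exons 3 to 7 (chr4:97956374-98041679, plus strand): ttacaggacccagagATTCAAGTCAATCTG
The capitals are the same in both Slc10a7 junctions, because a family of circles uses the start of exon 2 and differs in the donor that reaches back to it. The Gphn circles ending at exon 8 share the lower-case side and differ in the acceptor. Exon sequence away from the junction can also occur in the linear mRNA of the host, and only the join is particular to a circle.

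The deposited values are SRPBM, a signal scaled to the depth of a library, and the total reads behind them are not known. The libraries summed to 31472 to 41080 SRPBM over all circRNAs in PZH livers and 28922 to 40927 SRPBM in Control livers. The smallest value listed above 0 was 0.584 to 0.719 SRPBM per library, which sets the resolution. An entry of 0 can be a junction under the listing minimum, so it is written as listed at 0. Correlations between libraries ranged from 0.844 to 0.899 on log2 values of the 1089 circRNAs above 0 in all 12 libraries. No pair of libraries held identical values. CircRNAs of the liver-expressed genes Abcc2, Mlxipl, Slco1b2 and Pzp were above 0 in all 12 libraries, those of Cps1 in 11 and those of Cyp2j5 in 10. The labels describe separate mice, and each library was counted as 1 replicate. In whole liver, fewer cells of a type and less RNA per cell cannot be told apart.

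The long-range circRNAs spanned 50007 to 197887 bp, with a median of 70838 bp. The upper end was also the longest span in the whole table, and whether the circRNA caller limited the span is not known. A span of 100 kb or more was found in 156 of the long-range circRNAs and one of 150 kb or more in 44. The span was mostly intron. In the 614 members for which 1 transcript held both ends, a median of 5 exons with 586 bases of exon sequence lay between the ends. In the 15050 circRNAs of protein-coding genes under 50 kb the medians were 3 exons and 413 bases. The shorter circRNAs of 20 to 50 kb, taken alone, had a median of 595 exon bases, close to that of the long-range ones. Within the long-range circRNAs, span and exonic length were not related (Spearman correlation -0.04 over 614 circRNAs), whereas span and the longest intron between the ends were (0.65 over the same 614). That longest intron had a median length of 42575 bp and took a median of 56.3% of the span. These correlations are across circRNAs, many of which share exons and hosts.

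The introns on either side were long as well. The median intron before the first exon was 30277 bp for long-range circRNAs and 5333 bp for shorter ones, and the median intron after the last exon was 24369 bp and 4197 bp. Part of this goes with the size of the genes. Taken over circRNAs, the median span of the host gene was 269285 bp for long-range circRNAs and 80232 bp for shorter ones. A host with several circRNAs counts once for each of them. Shorter circRNAs of the same hosts had median flanks of 13081 and 13382 bp, and circRNAs of 20 to 50 kb had 14485 and 10559 bp. The first exon of the circle was exon 2 of the transcript in 247 of 614 (40.2%), against 24.3% of the shorter circRNAs. The share was 35.5% among circRNAs of 20 to 50 kb and 17.1% among the shorter circRNAs of the same hosts. In 137 long-range circRNAs (22.3%) the exons between the ends held the start codon. This was so in 10.5% of the shorter circRNAs and 15.9% of those of 20 to 50 kb. A further 26 lay in 5′ UTR exons alone and 442 held coding sequence with neither start nor stop codon. Flanking intron sequence, and with it repeats or motifs in the flanks, was not analysed here.

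**Figure D1:**
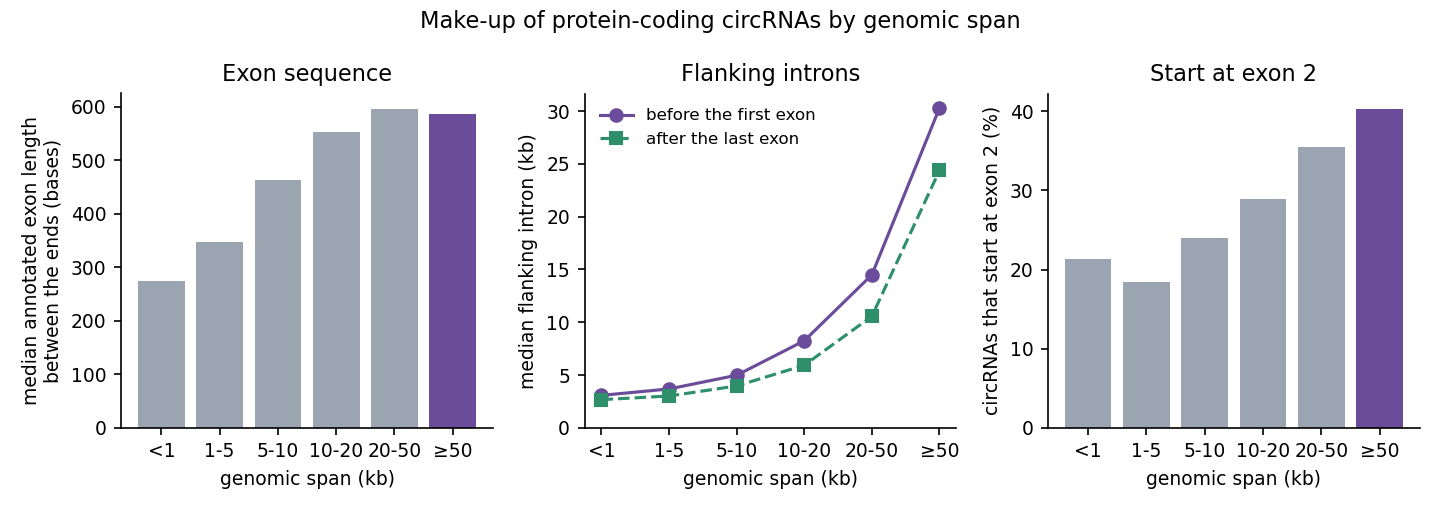
Make-up of circRNAs of protein-coding genes by genomic span class (x axis, kb), with the long-range class last and in purple in the bar panels. Left, median annotated exon bases between the ends, 586 in the long-range class and 595 at 20 to 50 kb; middle, median length in kb of the intron before the first exon and of the intron after the last exon; right, percent of circRNAs whose first exon is exon 2, highest at 40.2% in the long-range class.

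Most long-range circRNAs were seen seldom. Of the 617, 294 (47.6%) were above 0 in 1 library, 201 in 2 to 5 libraries, 96 in 6 to 11 and 26 (4.21%) in all 12. The same shares among shorter circRNAs were 43.0% in 1 library and 6.96% in all 12. Span and mean level were unrelated both over 15667 protein-coding circRNAs (Spearman correlation -0.03) and within the 617 (-0.04). The signal was concentrated, as the 26 circRNAs found in every library held 50.3% of the summed SRPBM of all 617 and the 8 with the highest mean held 33.2%.

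The most abundant long-range circle joined exon 4 back to exon 2 of Ncoa2, a coactivator of nuclear receptors. It spans 64719 bp of chromosome 1 (13221307 to 13286025, minus strand), of which 61255 bp are 1 intron, and holds 335 annotated exon bases with the start codon. Its level was 60.5 to 112 SRPBM with a median of 69.8 in PZH livers, against 54.9 to 83.1 SRPBM with a median of 67.9 in Control livers. The groups overlapped, and 1 PZH library was the highest of all. The means were 78.1 ± 19.9 SRPBM in PZH livers and 67.6 ± 9.34 SRPBM in Control livers (SD, n = 6 each), a log2 fold change of 0.18 ± 0.15 (SE; limma adjusted p = 0.801). Here and below, fold changes are PZH over Control on the scale of log2(SRPBM + 0.636), which understates changes of low circRNAs.

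Gphn, which encodes gephyrin, a scaffold of inhibitory synapses that also makes the molybdenum cofactor, came next with its circle of exons 2 to 4. That circle had 22.7 to 49.7 SRPBM (median 33.2) in PZH livers and 27.5 to 52.6 SRPBM (median 37.4) in Control livers. Slc10a7, a member of the solute carrier family that also holds the bile acid transporters, gave a circle of exons 2 to 5 with 31.6 to 43.1 SRPBM (median 34.5) in PZH livers and 26.1 to 43.0 SRPBM (median 36.4) in Control livers. In both circles the ranges of the groups lay largely on top of each other.

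Atxn1 encodes ataxin 1, a transcriptional co-repressor whose expanded form causes a spinocerebellar ataxia in people. Its circles of exons 2 to 3 and 2 to 4 lie in 5′ UTR exons and span 104248 and 161067 bp of chromosome 13, both over an intron of 103998 bp. The circle of exons 2 to 3 had 28.1 to 47.9 SRPBM (median 29.7) in PZH livers and 22.7 to 38.5 SRPBM (median 35.0) in Control livers. The circle of exons 2 to 4 had 22.9 to 35.1 SRPBM (median 27.4) in PZH livers and 17.95 to 28.6 SRPBM (median 24.1) in Control livers. Neither pair of ranges separated. All but 1 of the 8 circRNAs of Atxn1 were long-range, and they held 99.2% of the circular signal of the gene.

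The other hosts among the 8 highest were Tasp1, Arid1b and Mllt10. Tasp1, a protease that cleaves MLL proteins, had 12.7 to 43.2 SRPBM (median 22.3) in PZH livers and 15.9 to 33.4 SRPBM (median 21.8) in Control livers for exons 2 to 8. Arid1b, a subunit of SWI/SNF chromatin remodellers, had 16.1 to 30.4 SRPBM (median 22.2) in PZH livers and 11.2 to 26.3 SRPBM (median 20.7) in Control livers for exons 2 to 4. Mllt10, a partner of the histone methyltransferase Dot1l, had 9.42 to 26.2 SRPBM (median 22.9) in PZH livers for exons 4 to 10. In Control livers that Mllt10 circle was listed at 0 in 1 library and otherwise reached 26.1 SRPBM, with a median of 19.1 over the 6. None of the 8 passed the test between the groups, and their adjusted p-values by limma ranged from 0.743 (Mllt10) to 0.979 (Atxn1 exons 2 to 3).

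**Figure D2:**
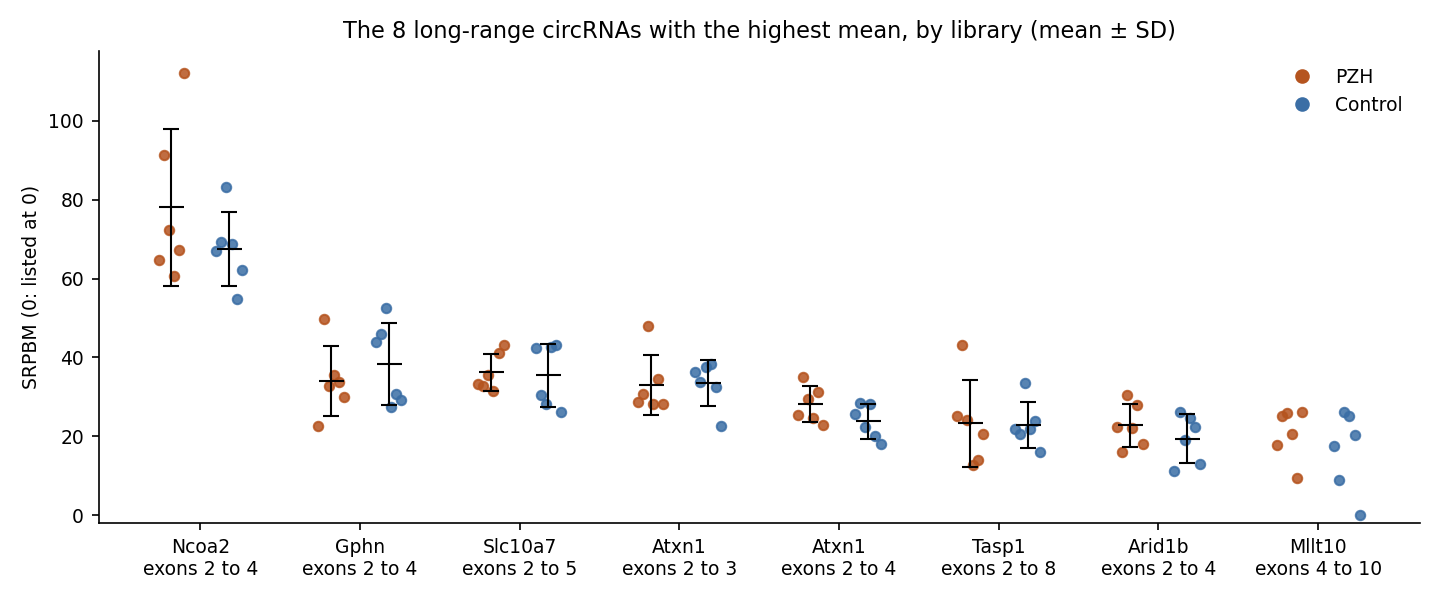
SRPBM (y axis) of the 8 long-range circRNAs with the highest mean, each point 1 liver, PZH left of Control for each circRNA, with mean ± SD where every library is above 0. The point clouds overlap in all 8, and the highest point is a PZH library of Ncoa2 exons 2 to 4 at 112 SRPBM.

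Most long circles were minor products of their gene, but some were its main circle. Over all 617, 52 were the highest circRNA of their host, of which 26 were above 0 in at least 6 libraries. In 18 hosts every circRNA listed was long-range, so the highest was long-range by definition. Of the 20 long-range circRNAs with the highest mean, a choice that favours such circles, 12 were the highest of their host, among them those of Ncoa2, Gphn, Slc10a7, Arid1b, Mllt10, Man1a and Zbtb16. Long-range circles held over 50% of the circular signal in 48 of the 296 hosts, with the 18 hosts that had no other circRNA among them. The share was 72.7% in Gphn and 59.8% in Slc10a7, but the median over hosts was 6.61%. The opposite case was Adk, adenosine kinase, whose circle of exons 5 to 6 spans 5739 bp and averaged 360 SRPBM over all libraries while its long circle of exons 5 to 7 (83351 bp) averaged 9.68 SRPBM.

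To ask whether an abundant long circle and the other circles of its gene moved apart, the log2 ratio of the 2 was compared for 5 circRNAs, chosen by their mean level among hosts with other circles in every library. The ratio for Atxn1 exons 2 to 4 averaged -0.45 ± 0.24 in PZH livers and -0.72 ± 0.15 in Control livers (SD, n = 6 each), a difference of 0.27. The 2-sided exact permutation p was 0.0476, and 0.189 after Benjamini-Hochberg adjustment over the 5. The ratio for Gphn exons 2 to 4 averaged -0.86 ± 0.31 in PZH livers and -0.26 ± 0.82 in Control livers, with an adjusted exact p of 0.189 as well. Its difference of -0.60 became -0.29 without Control 2. For Ncoa2, Slc10a7 and Atxn1 exons 2 to 3 the differences were 0.10, -0.19 and -0.23, with adjusted exact permutation p-values of 0.610, 0.541 and 0.408. The 2 Atxn1 ratios are nearly 1 contrast seen from both sides. The circles of exons 2 to 3 and 2 to 4 held 51.0% and 39.8% of the gene's circular signal, so each dominates the other's denominator. No ratio passed the threshold of 0.05.

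Long-range circRNAs came in families with shared ends. In 556 of 617 (90.1%) at least 1 end was also an end of another circRNA of the table, and in 342 (55.4%) both were, against 66.8% and 21.3% of the shorter circRNAs. Sharing was also common in the shorter circRNAs of the same hosts, with 88.2% for at least 1 end and 41.8% for both. For circRNAs of 20 to 50 kb these shares were 89.2% and 44.8%. Members of a family share exons and are not independent of each other. While 170 hosts gave 1 long-range circRNA, 126 gave more than 1 and 40 gave at least 4.

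The largest family came from Dpyd, the enzyme of the first step of pyrimidine breakdown, a gene of 870796 bp with 21 long-range circRNAs between 11 starts and 11 ends. Gphn followed with 18 between 5 starts and 11 ends, then Rere, an atrophin-family co-repressor, with 14, and Tasp1 with 11. Adk and the forkhead factor Foxp1 had 9 each, Erc1 and Slc10a7 had 8 each, and Atxn1, Chchd3 and the glycogen branching enzyme Gbe1 had 7 each. Ghr (the growth hormone receptor), Rabgap1l and Snd1 had 6 each. Hosts with 5 included Cpeb3, Dennd1b, Klf12, Mbd5, Nfib, Sgms1, Slc4a4, Stag1, Tbc1d5 and Usp6nl. Hosts with 4 included Arid5b, Asph, Bckdhb, Cdkal1, Cers6, Cux1, Diaph2, Jarid2, Lpp, Mllt10, Pcca, Sntg1, Stau2 and Vwa8. Usp6nl used 1 start with 5 ends and Slc10a7 used 2 starts with 6 ends.

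The longest circles were rare. Magi1, a scaffold of tight junctions, gave the longest at 197887 bp (exons 2 to 12, chromosome 6, 93745434 to 93943320), seen in 1 PZH library at 2.82 SRPBM. The circle of exons 2 to 6 of Chchd3, a protein of the mitochondrial inner membrane, spans 197280 bp and was above 0 in 1 PZH library and 2 Control libraries. The Dpyd circle of exons 13 to 18 (196019 bp) was above 0 in 2 PZH libraries and no Control library, and the circle of exons 2 to 7 of the transcription factor Sox5 (194427 bp) in 1 PZH library. Slc10a7 exons 2 to 10, at 191363 bp, differed from these in being above 0 in 11 libraries. The next longest circles above 0 in at least 6 libraries were those of Slc10a7 exons 2 to 9, Foxp1 exons 1 to 3, Gphn exons 2 to 8 and Atxn1 exons 2 to 4.

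At the threshold itself, the 3 members just above 50000 bp were Glt1d1 exons 2 to 11 (50007 bp), Akap7 exons 2 to 6 (50105 bp) and Ppp2r3a exons 3 to 10 (50115 bp), above 0 in 3, 3 and 1 libraries. The 3 circRNAs just below were Prex2 exons 26 to 35 (49942 bp), Pir exons 3 to 6 (49971 bp) and Gphn exons 5 to 8 (49995 bp), above 0 in 1, 2 and 9 libraries.

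Taken as a sum, long-range circRNAs made up a larger part of the circular signal in PZH livers, as did circRNAs of 10 to 50 kb. They reached 766 to 1020 SRPBM (median 869) in PZH livers and 590.3 to 919 SRPBM (median 741) in Control livers. As a share of each library's circRNA signal this was 2.24% to 2.58% in PZH livers, 2.42% ± 0.121 on average, against 1.96% to 2.24% in Control livers, 2.06% ± 0.121 on average (SD, n = 6 each). The ranges met at 2.24%, where the lowest PZH library and the highest Control library lay. The number of long-range circRNAs above 0 was 159 to 207 in PZH livers (mean 184 ± 19.2) and 112 to 196 in Control livers (mean 146 ± 29.2). As a share of all circRNAs above 0 in the library, these were 3.64% ± 0.239 in PZH livers and 3.00% ± 0.305 in Control livers. Sums over the members are given as a description, with no test. The share of the signal also differed in some other span classes. For circRNAs under 1 kb it was 12.4% to 13.6% in PZH livers and 14.04% to 14.96% in Control livers. For those of 10 to 20 kb it was 19.3% to 20.2% in PZH livers and 17.8% to 18.6% in Control livers, and for those of 20 to 50 kb it was 12.03% to 13.10% in PZH livers and 10.84% to 12.02% in Control livers. In none of these classes did the groups overlap. Over circRNAs above 0 in all 12 libraries alone, the long-range share was 1.76% ± 0.105 in PZH livers and 1.64% ± 0.0850 in Control livers. Its ratio, PZH over Control, was then 1.07, against 1.18 over all long-range circRNAs, and the ratios of the 10 to 20 kb and 20 to 50 kb classes in the same circRNAs were 1.08 and 1.07.

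The amount of exon sequence between the ends divided the long-range circRNAs into parts whose mean shares differed in opposite directions. This division at 300 bases was made after the values were seen and gets no test. The 541 with at least 300 bases held 1.85% to 2.08% of the signal in PZH livers and 1.46% to 1.72% in Control livers, so that every PZH library lay above every Control library. The 73 with fewer than 300 bases held 0.354% to 0.484% in PZH livers and 0.458% to 0.526% in Control livers, lower on average in PZH livers and with overlap.

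**Figure D3:**
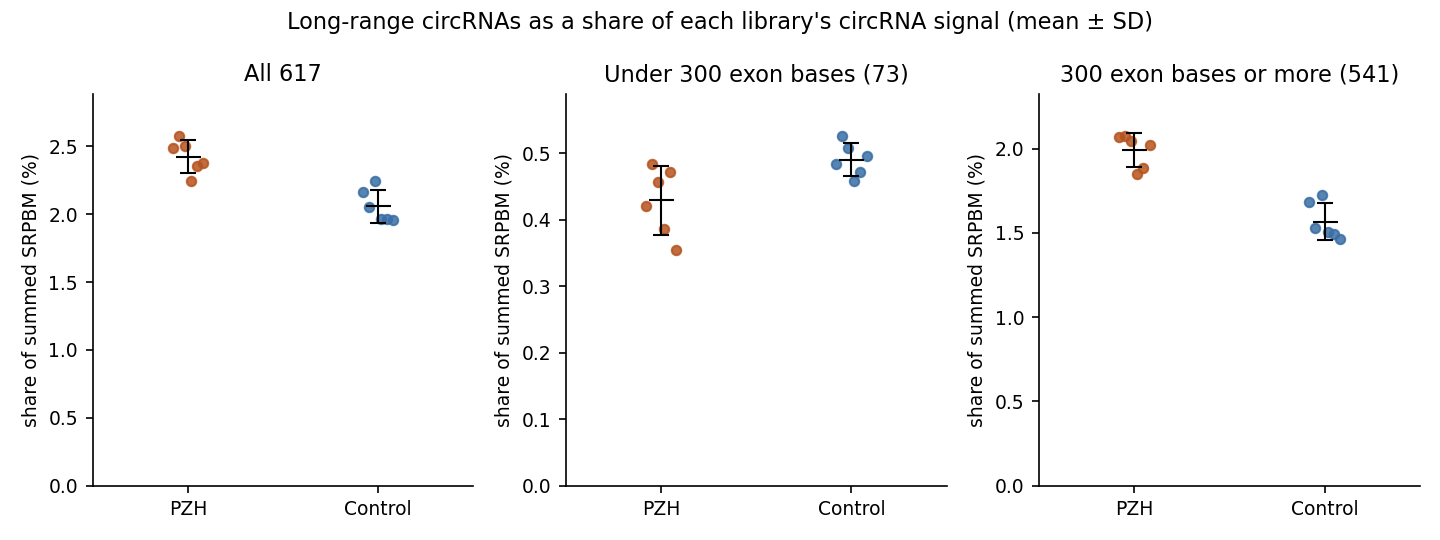
Share of each library's summed circRNA SRPBM (y axis, percent) held by all 617 long-range circRNAs, by the 73 with fewer than 300 annotated exon bases and by the 541 with 300 or more, PZH left and Control right, each point 1 liver, with mean ± SD. The means are 2.42% and 2.06% for all, 0.429% and 0.490% for the short-exonic circRNAs, and 1.99% and 1.57% for the others, where the groups do not overlap.

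Between the groups, 122 of the 617 (19.8%), from 70 hosts, could be tested one by one, being above 0 in at least 6 of the 12 libraries whatever their group. The other 495 were not tested. None of the 122 passed an adjusted p of 0.05 in limma fitted over all 3870 circRNAs that met the minimum, among which 2 passed (0.0517%). The smallest adjusted p of a long-range circRNA was 0.408. At an unadjusted p under 0.05, 9 of the 122 (7.38%) were higher in PZH livers and 0 were lower, against 4.55% higher and 3.00% lower of all circRNAs tested. The share higher was 9.55% among circRNAs of 20 to 50 kb, with 2.03% lower, and 6.79% among those of 10 to 20 kb, with 1.77% lower. For 6 of the 9 long-range circRNAs, at least 1 Control library was listed at 0. Their fold changes therefore rest in part on the value added before the log. The minimum took no account of group, so a circRNA could reach it mainly through PZH libraries. The part of this in the count of 9 was not tested. No other tool was run. The log2 fold change was above 0 for 86 and below 0 for 36, or 70.5% above 0, against 54.3% of all circRNAs tested. Its median was 0.29 over the 122 and 0.06 over all tested, with a range of -1.16 to 2.04 among the 122. The median SE of a single circRNA was 0.64. None of the 122 had all 6 PZH values above or all 6 below the Control values, against 0.491% and 0.181% of all circRNAs tested.

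The median log2 fold change by span was -0.05 under 1 kb, -0.05 at 1 to 5 kb, 0.09 at 5 to 10 kb, 0.19 at 10 to 20 kb, 0.16 at 20 to 50 kb and 0.29 at 50 kb or more. Among circRNAs above 0 in all 12 libraries the long-range median was 0.15, over 26 circRNAs, against 0.04 over 1047 shorter ones. There the order by span did not hold, as the medians of 10 to 20 kb and 20 to 50 kb were 0.18 and 0.16. Exonic length again went along with it. The 24 tested long-range circRNAs with fewer than 300 exon bases had a median of -0.15 with 9 above 0, and the 98 with 300 or more had a median of 0.39 with 77 above 0, including all 9 of the circRNAs with an unadjusted p under 0.05. The shorter circRNAs went the same way by smaller amounts, with a median of -0.05 over 1024 with fewer than 300 bases and 0.10 over 2635 with 300 or more. In 63 hosts with both kinds tested, the long-range median lay above the median of the shorter circRNAs in 43, by a median difference of 0.32. These counts describe members chosen by span and carry no test, and the part of exonic length in the difference by span was not tested.

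**Figure D4:**
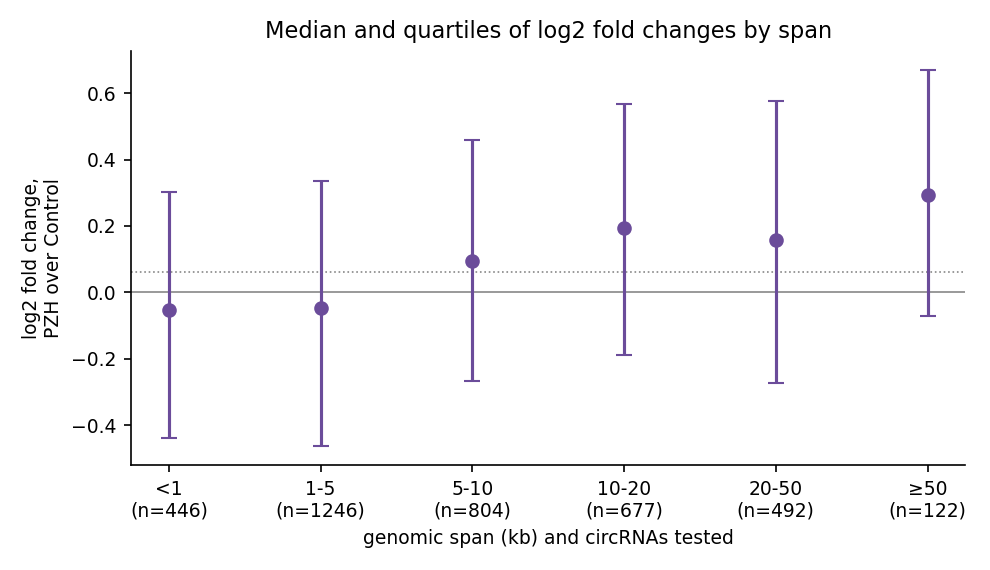
Median (points) and quartiles (bars) of the log2 fold change, PZH over Control, of the circRNAs tested in each span class (x axis, kb, with the number tested), with a dotted line at the median of all circRNAs tested, 0.06. The medians run from -0.05 in the shortest class to 0.29 in the long-range class, and the quartiles of neighbouring classes overlap widely.

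The smallest p among long-range circRNAs belonged to Bckdhb, which encodes the beta subunit of the dehydrogenase that breaks down branched-chain keto acids. Its circle of exons 2 to 8 (60096 bp, chromosome 9) had 6.53 to 15.4 SRPBM (median 13.8) in PZH livers and 1.17 to 7.15 SRPBM (median 6.08) in Control livers. All but 1 PZH library lay above every Control library. The log2 fold change was 1.24 ± 0.37 (SE; limma adjusted p = 0.408), and it did not pass. With the test limited to the 1089 circRNAs above 0 in all 12 libraries, for which the variances are estimated anew, its adjusted p by limma was 0.0174. The shorter Bckdhb circles of exons 2 to 6 and 4 to 8 averaged 102 and 80.6 SRPBM in PZH livers and 77.2 and 58.3 SRPBM in Control livers, with log2 fold changes of 0.41 and 0.49.

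Man1a, a Golgi mannosidase that trims N-glycans, followed with its circle of exons 3 to 6 (53772 bp). It had 8.68 to 26.5 SRPBM (median 15.6) in PZH livers and 5.52 to 10.7 SRPBM (median 8.21) in Control livers, a log2 fold change of 0.87 ± 0.28 (SE). All but 1 PZH library again lay above every Control library. The circle of exons 3 to 5, which shares its start and spans 16380 bp, averaged 10.2 SRPBM in PZH livers and 9.23 SRPBM in Control livers.

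In the list used here of transcription factors, co-regulators and chromatin proteins, 3 circles had an unadjusted p under 0.05. Zmiz1, a co-activator related to the PIAS proteins, had 6.57 to 14.4 SRPBM (median 10.5) in PZH livers and 2.62 to 9.50 SRPBM (median 4.84) in Control livers for exons 2 to 6. Nfia and Nfib encode transcription factors of the nuclear factor I family. Nfia exons 3 to 7 was above 0 in 5 of 6 PZH libraries, at up to 6.21 SRPBM, and in 2 of 6 Control libraries, at up to 4.78 SRPBM. Nfib exons 2 to 6, named here for its p after the values were seen, was above 0 in 6 of 6 PZH libraries, at up to 8.06 SRPBM, and in 3 of 6 Control libraries, at up to 3.78 SRPBM. The groups overlapped for each of these. Jarid2, an accessory subunit of a Polycomb repressive complex and not a member of that list, gave a circle of exons 2 to 3 that was above 0 in 5 PZH libraries (up to 5.94 SRPBM) and 1 Control library (1.99 SRPBM).

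The other circles in this set came from Gphn and Slc10a7. Gphn exons 2 to 8 was above 0 in 6 of 6 PZH libraries, with 1.67 to 8.36 SRPBM, and in 2 of 6 Control libraries, at 1.33 and 3.45 SRPBM. Its fitted log2 fold change of 2.04 ± 0.67 (SE) was the largest of the 122 and depends on the pseudocount, as most Control entries were listed at 0. Gphn exons 11 to 18 was above 0 in all 6 PZH libraries at 0.918 to 2.09 SRPBM, near the smallest values listed, and in 1 Control library at 2.39 SRPBM. Slc10a7 exons 2 to 10 had 9.16 to 21.5 SRPBM (median 12.1) in PZH livers, and in Control livers it was listed at 0 in 1 library and reached 15.6 SRPBM (median 6.90). Adjusted p-values by limma of these 9 circRNAs were between 0.408 and 0.619.

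**Figure D5:**
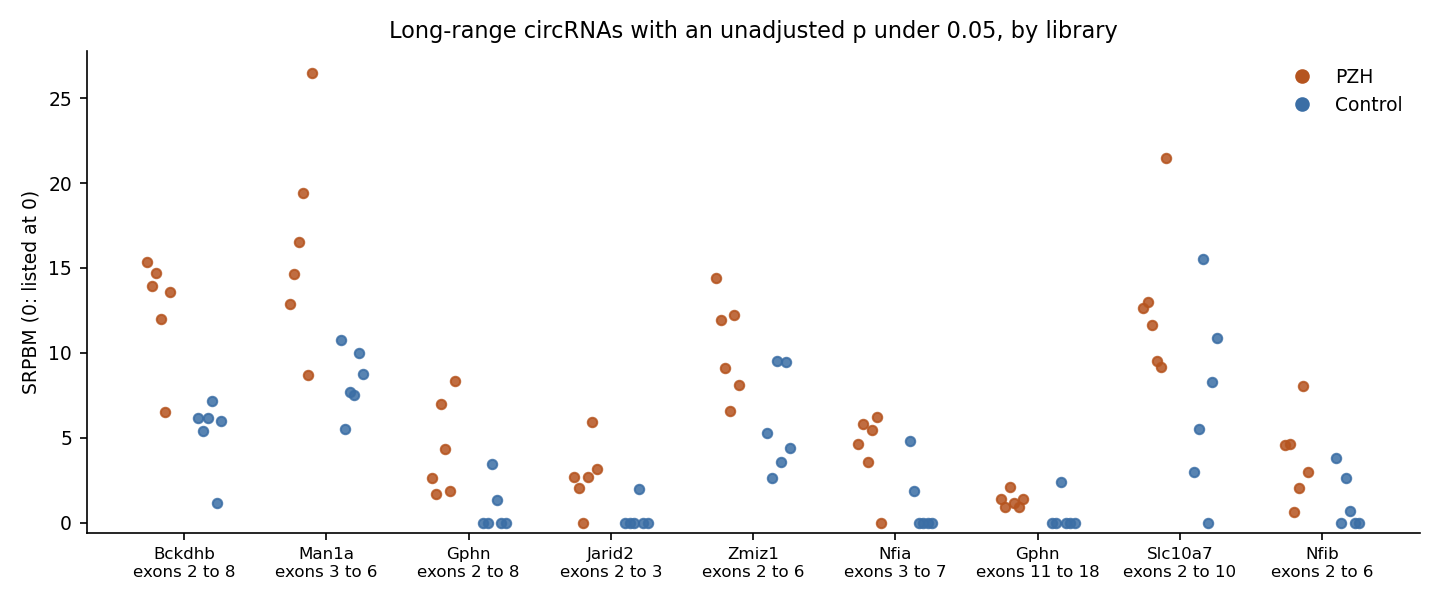
SRPBM (y axis, with listed-at-0 entries at 0) of the 9 long-range circRNAs with an unadjusted p under 0.05, each point 1 liver, PZH left of Control for each circRNA. In all 9 the PZH points sit higher on the whole, none of the 9 separates the groups fully, and 6 have Control libraries listed at 0.

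Circles of 1 family did not carry the same values. In Slc10a7, the circles that start at exon 2 had log2 fold changes of 0.05 ± 0.17 ending at exon 5, 0.60 ± 0.63 at exon 6, 0.36 ± 0.65 at exon 9 and 1.28 ± 0.56 at exon 10 (SE). Their annotated exon content was 335, 371, 673 and 747 bases. Without Control 4, the library that listed it at 0, the value of the circle ending at exon 10 was 0.67. In Gphn, circles from exon 2 had -0.16 ± 0.20 ending at exon 4, 0.30 ± 0.36 at exon 5, 0.19 ± 0.63 at exon 6 and 2.04 ± 0.67 at exon 8, with 230, 325, 392 and 800 exon bases. Among these long-range circles the one ending nearest to exon 2 had the smallest value in both families, and the one with the most exon sequence had the largest. This order was not found in every family. From exon 2, Jarid2 had 1.79 ± 0.63 ending at exon 3 and 0.16 ± 0.59 at exon 4. Tasp1 had 0.12 ± 0.66 ending at exon 6, -0.13 ± 0.68 at exon 7 and -0.06 ± 0.26 at exon 8. Mbd5 went with the order, with 0.13 ± 0.39, 0.75 ± 0.69 and 0.81 ± 0.65 ending at exons 4, 5 and 6. The circles under 50 kb from exon 2 of the first 2 families, Slc10a7 exons 2 to 4 and Gphn exons 2 to 3, had 0.03 ± 0.17 and 0.65 ± 0.60. Gphn exons 5 to 8, just under the length threshold and with 570 exon bases, had 1.88 ± 0.65. The differences between circles of a family were not tested beyond the 5 ratios above, and the intervals of neighbouring circles overlap. Gphn also gave the lowest value of the 122, for exons 3 to 5 (246 bases), with 0 to 3.72 SRPBM (median 1.67) and 4 libraries above 0 in PZH livers and 0.723 to 6.07 SRPBM (median 4.36) in Control livers.

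By presence alone, 4 long-range circRNAs were above 0 in at least 5 libraries of PZH livers and at most 1 of Control livers, and 0 the other way, while 0.274% and 0.152% of all circRNAs in the table met these conditions. They were the circles of Jarid2 exons 2 to 3 and Gphn exons 11 to 18 described above, Reln exons 3 to 8 and Gphn exons 4 to 8. Reln encodes reelin, a secreted glycoprotein that hepatic stellate cells are known to make in liver. Its circle reached 3.92 SRPBM and was above 0 in 5 PZH libraries, and every Control library listed it at 0. Gphn exons 4 to 8 reached 1.98 SRPBM in the same number of PZH libraries, again with every Control library at 0. PZH libraries listed more circRNAs on average, 5060 ± 390.1 against 4859 ± 660.1 in Control livers (SD, n = 6 each). The ranges overlapped, at 4439 to 5510 in PZH livers and 3735 to 5500 in Control livers, with Control 2 the lowest. The part of these numbers in the presences above was not tested. Over all 617, 217 were seen in PZH livers alone, 135 in Control livers alone and 265 in both, and the circRNAs seen in 1 library only were 166 in PZH livers and 128 in Control livers.

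On the lower side the 6 circles with the smallest p were those of Gphn exons 3 to 5, Fggy exons 4 to 6, Glcci1 exons 2 to 7, Gbe1 exons 4 to 9, Dpyd exons 14 to 18 and Stag1 exons 2 to 5. All are low, and none passed the test, with adjusted p-values by limma between 0.692 and 0.810. Glcci1, a glucocorticoid-induced gene, had 0 to 4.27 SRPBM (median 2.37, 5 libraries above 0) in PZH livers and 1.57 to 5.99 SRPBM (median 3.56) in Control livers. Fggy, a carbohydrate kinase, was above 0 in 2 PZH libraries and 5 Control libraries, as was Gbe1. Dpyd exons 14 to 18 was above 0 in 3 PZH libraries and 5 Control libraries, and its log2 fold change was -0.86 ± 0.72 (SE). The Dpyd circle of exons 15 to 18, which shares its end, had 1.34 to 7.003 SRPBM (median 2.93) in PZH livers and was above 0 in 3 Control libraries, with 1.33 ± 0.70. The 95% intervals of both Dpyd values include 0. Stag1, a cohesin subunit, was above 0 in 4 PZH libraries and 6 Control libraries.

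Counted as circRNAs, long-range circles came most often from genes of gene regulation and of metabolism among the 10 lists of host roles used. Counted as hosts, metabolism with 13 genes lay behind GTPase regulators (23), vesicle traffic (20) and kinases (17). The list of transcription factors, co-regulators and chromatin proteins hosted 102 (16.5%, against 7.40% of the shorter circRNAs) from 43 genes. This list is not complete, as Atxn1, Sox5 and Jarid2 are outside it. Of the 24 tested, 18 had a positive and 6 a negative log2 fold change, 3 had an unadjusted p under 0.05 and 0 an adjusted one. Beside the circles above, Foxp1 exons 1 to 3 was found in 4 livers of the PZH group and 3 of the Control group. Hivep1 exons 2 to 3, of a zinc finger factor, was above 0 in 4 libraries of each group, at up to 4.39 SRPBM in PZH livers and 13.6 SRPBM in Control livers. Metabolic enzymes and solute carriers hosted 82 (13.3%, against 5.61%) from 13 genes, which include Dpyd, Gphn, Slc10a7, Adk, Gbe1 and Bckdhb. Dpyd alone gave 21 of the 82 and Gphn 18. Of the 31 tested, 23 were positive and 8 negative, and 4 had an unadjusted p under 0.05, all of them described above. The median log2 fold change was 0.43 in the first list and 0.34 in the second, beside 0.29 over the 122 long-range circRNAs and 0.06 over all circRNAs tested. The counts stand beside 70.5% positive and 7.38% higher at an unadjusted p under 0.05 among the 122, and 54.3% and 4.55% among all tested. Neither list is independent of earlier results on these data.

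Regulators of small GTPases hosted 48 (7.78%, against 4.21% of the shorter circRNAs) from 23 genes. Of the 48, 7 were tested, 6 with a positive and 1 with a negative log2 fold change. Arhgap10, a GTPase-activating protein, had 0.621 to 14.1 SRPBM (median 9.26) in PZH livers and 0 to 10.7 SRPBM (median 6.17, 5 libraries above 0) in Control livers for exons 14 to 19. Rabgap1l exons 9 to 12 was found in 6 PZH livers and 4 Control livers. Ralgps1 exons 4 to 8, of a Ral exchange factor, was found in 3 PZH livers and 4 Control livers. The groups overlapped for each of these GTPase regulators. Genes of vesicle traffic, cilia and motors hosted 33 (5.35%, against 7.83% of the shorter circRNAs) from 20 genes. Among the 4 tested, 1 was positive and 3 were negative. Akap7, which anchors protein kinase A, had 4.76 to 16.1 SRPBM (median 7.48) in PZH livers and 5.29 to 12.5 SRPBM (median 8.58) in Control livers for exons 2 to 7. Tmem164 exons 2 to 6, the only member to hold both the start and the stop codon of its transcript, had 7.73 to 15.7 SRPBM (median 9.76) in PZH livers and 7.53 to 13.5 SRPBM (median 10.5) in Control livers. The medians of both circles were slightly lower in PZH livers, well inside the spread between livers. Tmem164 exons 3 to 5 was above 0 in 5 libraries of each group.

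The remaining lists held fewer tested circles. Protein kinases, phosphatases and phosphoinositide enzymes hosted 25 (4.05%, against 5.01% of the shorter circRNAs) with 2 tested. RNA-binding and translation genes hosted 23 (3.73%, against 4.43%) with 3 tested. Cpeb3 exons 3 to 7, of a regulator of mRNA translation, was found in 4 PZH livers and 5 Control livers. Rbfox2 exons 2 to 3, of a splicing regulator, was found in 3 PZH livers and 2 Control livers and was not tested. Cell-surface receptors hosted 13 (2.11%, against 1.32%) with 1 tested, Ghr exons 2 to 8. That circle had 0 to 12.3 SRPBM (median 9.45) in PZH livers and 0 to 11.5 SRPBM (median 5.85) in Control livers. It was above 0 in 5 libraries of each group. The start of this circle at exon 2 is shared by Ghr exons 2 to 7. Ghr exons 2 to 7 was found in 4 PZH livers and 1 Control livers. Adhesion and polarity genes hosted 20 (3.24%, against 2.01%) and ubiquitin genes 11 (1.78%, against 5.10%). None was tested in either list, as none of these circles reached 6 libraries. Among them Fryl exons 2 to 4 was found in 3 PZH livers and 1 Control livers, Dcaf5 exons 2 to 8, of a ubiquitin ligase adaptor, in 2 PZH and 1 Control libraries, and Nedd4 exons 2 to 12, of a ubiquitin ligase, in 2 PZH libraries.

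Genes known from common fragile sites, large genes that break under replication stress, hosted 27 long-range circRNAs (4.38%) and 0.286% of the shorter ones, and most of the 27 are the Dpyd family. Of the 7 tested, 5 were positive and 2 negative. Dpyd exons 9 to 13 was the highest, with 4.12 to 8.27 SRPBM (median 5.38) in PZH livers and 0 to 9.16 SRPBM (median 4.41, 5 libraries above 0) in Control livers. A further 257 long-range circRNAs, from 140 hosts, belonged to none of these lists, among them those of Tasp1, Man1a and Jarid2.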

How the data were processed

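CircRNAs were measured by RNA sequencing (Trizol extraction and a TruSeq RNA kit, per the labels' protocols) in 6 PZH and 6 Control livers. The authors deposited 1 table of a normalized signal, SRPBM, per circRNA and library, and no read counts. Per the submitters' processing notes, Trim Galore and STAR were used with GRCm38 (mm10). The SRPBM calculation, the circRNA caller, its minimum and all versions were not given in the sources used here, so depth is unknown and no counting interval is printed. In each library 56.8% to 63.8% of low values lay within 0.05 below to 0.1 above whole steps, too few to recover reads.

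Hosts, exons and introns came from GENCODE M21. All 16445 circRNAs were filtered to those above 0 in at least 6 of 12 libraries (3870) and fitted with limma 3.58.1 (R 4.3.3) on log2(SRPBM + 0.636), with eBayes trend and group as the only term, 2-sided, Benjamini-Hochberg over all tested. The fit was also run on simulated, normally distributed values. These held no entries listed at 0, so that run does not cover circRNAs with such entries. The value added before the log is the median, over libraries, of the smallest entry above 0. Host ratios used exact permutation over 924 assignments. Sums, shares and medians over members have no test. Alternatives were the pseudocount, filter, scaling, trend, replicate block, length threshold, ratio denominator and leaving out each library. Intron sequence was not analysed here, a departure from the planned description of flanks.

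The circRNAs named are the 8 with the highest mean (entries at 0 included), the 6 with the smallest p in each direction, the longest 5 of all and of those above 0 in 6 libraries, 3 on either side of the length threshold, those set apart by presence, hosts with at least 4 and, per role list, the 2 highest and the smallest p each way. The members and lists were chosen with earlier results of these data known. Results on some hosts are not reported here.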

Additional observations from a re-analysis of the deposited data

Results flagged for a closer look

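Sets of 6 values in 1 group were checked, each of 1 circRNA or of a sum, count or share over the long-range circRNAs. Of 43 such sets, 5 held a library far from the other 5, where chance gives about 1 in 20. Each of those 5 sets was of 1 circRNA. In PZH livers, Akap7 exons 2 to 7 had 1 library at 16.1 SRPBM and Atxn1 exons 2 to 3 had 1 at 47.9 SRPBM, each far above the rest. Slc10a7 exons 2 to 10 had 1 PZH library at 21.5 SRPBM, also far above the rest, and Rabgap1l exons 9 to 12 had 1 at 0.685 SRPBM, far below. In Control livers, Bckdhb exons 2 to 8 had 1 library at 1.17 SRPBM, far below the other 5. The Bckdhb and Slc10a7 circles are among those with an unadjusted p under 0.05, and both stayed higher in PZH livers without any 1 library, with log2 fold changes of 0.93 to 1.41 for Bckdhb and 0.67 to 1.60 for Slc10a7.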

How the results depend on the processing

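With no filter on low values, 30 circRNAs of the table passed. At an unadjusted p under 0.05, 16 of the 617 long-range circRNAs (2.59%) were higher and 1 (0.162%) lower, against 1.79% and 1.40% of all. With circRNAs above 0 in all 12 libraries, 10 passed, with 4 of 26 long-range circRNAs higher (15.4%, against 7.90% of all tested). Bckdhb exons 2 to 8 was the 1 long-range circRNA past the adjusted threshold under any setting. With the replicate block 1 passed, and 10 long-range circRNAs were higher (8.20%, against 4.21% of all tested). The replicate numbers showed no pairing of the livers. Deviations of same-numbered livers from their group means correlated at -0.12 to 0.03 over the 1089 circRNAs above 0 in all 12 libraries. By this measure 0 of 6 were best with their own number. Leaving out each library gave 1 to 3 circRNAs passed, 7 to 10 long-range circRNAs higher and 0 to 1 lower (1 without PZH 2 or Control 2), a median log2 fold change of 0.19 to 0.41 and a sum 125 to 191 SRPBM higher in PZH livers. The share higher was then 6.09% to 9.52% of the long-range circRNAs tested and 3.52% to 5.90% of all tested. Of all tested, 2.23% to 3.75% were lower. The long-range median stayed above that of all circRNAs tested in 21 of 21 settings, by 0.11 to 0.32, and was the highest of the span classes in 20, the exception being circRNAs above 0 in all 12 libraries.

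The host ratio of Slc10a7 exons 2 to 5 turned to 0.021 against the highest other circle. That of Atxn1 exons 2 to 4 ranged from 0.21 to 0.36 with 1 library left out and passed without PZH 3 (adjusted exact p = 0.0217). Of 671 alternative values of 35 named circRNAs, 652 kept direction and call and 18 changed sign, all with 1 library left out. Those ranges were -0.26 to 0.066 for Akap7 exons 2 to 7, -0.14 to 0.013 for Atxn1 exons 2 to 3, -0.37 to 0.88 for Ghr exons 2 to 8, -0.26 to 0.086 for Tasp1 exons 2 to 8, -0.028 to 0.11 for Slc10a7 exons 2 to 5, -0.87 to 0.15 for Tmem164 exons 3 to 5 and -0.16 to 0.035 for Tmem164 exons 2 to 6. The cause was not tested. With read counts unknown, circRNAs near the smallest listed values cannot be told from those under the listing minimum.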
